A study of Homo sapiens with 2 samples.

Results

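POLQ encodes DNA polymerase theta and SUMO3 encodes a small ubiquitin-like modifier. The deposited list of RRN3 PAR-CLIP peaks holds 174 peaks in these 2 genes, 151 in POLQ and 23 in SUMO3, of 7793 peaks in all. The genes were chosen on the number of their peaks in an earlier look at the same list, and a peak was counted when its midpoint lay in the gene body on the strand of the gene. The number of peaks and their location in coding sequence are therefore a description, with no test. The cells were SK-OV-3, a human ovarian cancer cell line, with a stable lentiviral insertion from which the EF1a promoter drives RRN3 fused at its N terminus to the V5 epitope. RRN3 is an initiation factor of RNA polymerase I. All cells were grown in complete medium with 100 μM 4-thiouridine for 14 h and were exposed to 365-nm light at 0.2 J/cm2, which crosslinks the built-in uridine analogue to bound protein. There was 1 library from the anti-V5 immunoprecipitate and 1 from the input of the same lysate, the list compares the former with the latter, and no value has a replicate. Untagged cells and reads per peak were not analysed here.

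DNA polymerase theta joins broken DNA ends by pairing short stretches of homology and copying across them. It has a helicase-like part at its amino terminus, a polymerase part at its carboxy terminus and a long central part between them. SUMO3 is made as a precursor whose carboxy-terminal tail is cut off behind a diglycine, through which the mature protein is attached to lysines of other proteins. A sumoylation consensus near its amino terminus allows chains to form.

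POLQ (ENSG00000051341.15) lies at chr3:121431431-121545988 of GRCh38 on the minus strand. Its canonical transcript has 30 exons, all with coding bases, a coding sequence of 7773 bases with the stop codon, and 2590 residues. SUMO3 (ENSG00000184900.16) lies at chr21:44805617-44818779, also on the minus strand. It has 4 exons, a coding sequence of 312 bases and 103 residues. The stretches below carry the pattern that the results turn on, namely the start codon, the joins between exons, and the points where peaks stop. They are read from GRCh38 on the strand of the gene, 5′ to 3′, with bases inside a peak in capitals and bases outside every peak in lower case.

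The coding part of POLQ exon 1 (chr3:121545715-121545877) opens with the start codon, and the first peak opens on the same base.
POLQ exon 1: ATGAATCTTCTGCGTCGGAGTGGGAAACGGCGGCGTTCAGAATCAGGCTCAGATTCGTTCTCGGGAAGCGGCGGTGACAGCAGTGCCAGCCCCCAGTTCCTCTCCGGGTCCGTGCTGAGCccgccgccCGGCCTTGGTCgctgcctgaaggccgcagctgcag
The last 40 bases of exon 5 (chr3:121537100-121537139) and the first 40 of exon 6 (chr3:121533170-121533209) lie in peaks up to the junction on both sides.
POLQ end of exon 5: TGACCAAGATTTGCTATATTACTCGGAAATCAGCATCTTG
POLQ start of exon 6: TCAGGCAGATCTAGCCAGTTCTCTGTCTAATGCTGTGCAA
The first 200 bases of exon 16 (chr3:121490209-121490408) show where peaks stop within the longest exon.
POLQ start of exon 16: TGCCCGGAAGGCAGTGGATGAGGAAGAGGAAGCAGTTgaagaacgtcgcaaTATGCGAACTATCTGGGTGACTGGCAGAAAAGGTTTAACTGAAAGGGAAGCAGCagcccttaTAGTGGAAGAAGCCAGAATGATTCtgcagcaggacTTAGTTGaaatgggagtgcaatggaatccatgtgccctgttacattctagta
The first 60 bases of exon 30 (chr3:121432358-121432417) hold the last peaks of the gene.
POLQ start of exon 30: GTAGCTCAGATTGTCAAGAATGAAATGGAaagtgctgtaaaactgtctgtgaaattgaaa

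All coding bases of SUMO3 are given exon by exon, since the gene has peaks in each of them. Exon 1 is chr21:44817948-44817968, exon 2 chr21:44813976-44814104, exon 3 chr21:44809047-44809118 and exon 4 chr21:44806951-44807040, coding parts only.
SUMO3 exon 1: atgtccGAGGAGAAGCCCAAG
SUMO3 exon 2: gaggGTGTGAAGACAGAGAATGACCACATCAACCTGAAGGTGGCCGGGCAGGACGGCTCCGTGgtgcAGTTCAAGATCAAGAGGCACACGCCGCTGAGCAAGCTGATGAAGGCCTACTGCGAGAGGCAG
SUMO3 exon 3: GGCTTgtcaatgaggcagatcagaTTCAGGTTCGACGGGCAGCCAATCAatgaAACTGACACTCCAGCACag
SUMO3 exon 4: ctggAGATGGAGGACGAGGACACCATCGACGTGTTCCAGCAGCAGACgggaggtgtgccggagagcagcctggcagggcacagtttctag

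The peaks of POLQ fell into 2 blocks of the coding sequence. The first block held 144 peaks between base 1 and base 2677, which is codon 893, and 50.7% of its bases were in a peak. The second block held 7 peaks in the last 3 exons, from codon 2473 to codon 2563, with 29.0% of its bases in a peak. Between the blocks lay 4739 coding bases, codons 893 to 2472, without a peak. Over the whole coding sequence 1435 bases (18.5%) were in a peak, at 19.4 peaks per kb. The coding sequence makes up 6.79% of the POLQ gene body, but most of the spliced mRNA, of which the UTRs are 11.2%. Each of the 151 peaks lay in coding sequence from its first to its last base. No peak lay on the opposite strand of the gene body.

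Exons 1 to 9 held 104 of the POLQ peaks and had 65.1% of their 1468 coding bases in peaks. The highest shares were those of exon 6 (85.9%, 21 peaks), exon 5 (83.5%, 9 peaks), exon 7 (81.1%, 14 peaks), exon 8 (81.0%, 15 peaks) and exon 1 (80.4%, 11 peaks). Exon 2 (29.4%) and exon 9 (35.2%) were the lowest of these 9. Coverage was lower in exons 10 to 14, where 13.6% of the bases were in 11 peaks and where exons 10 and 12 held none. It was 68.9% in exon 15, with 16 peaks. In exon 16, which has 3107 coding bases, all 13 peaks lay in the first 155, of which 78.7% were in a peak, and the other 2952 bases held none. The number of peaks per kb in this exon was 0.141 times that of the other coding exons together (95% interval 0.0735 to 0.250, covering only the number of peaks). The interval takes peaks as independent, although most touch another peak. With touching peaks joined the ratio was 0.137. Exons 17 to 27, with 1760 coding bases, had no peak. In exons 28, 29 and 30 the shares were 16.2%, 21.6% and 25.4%.

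**Figure D1:**
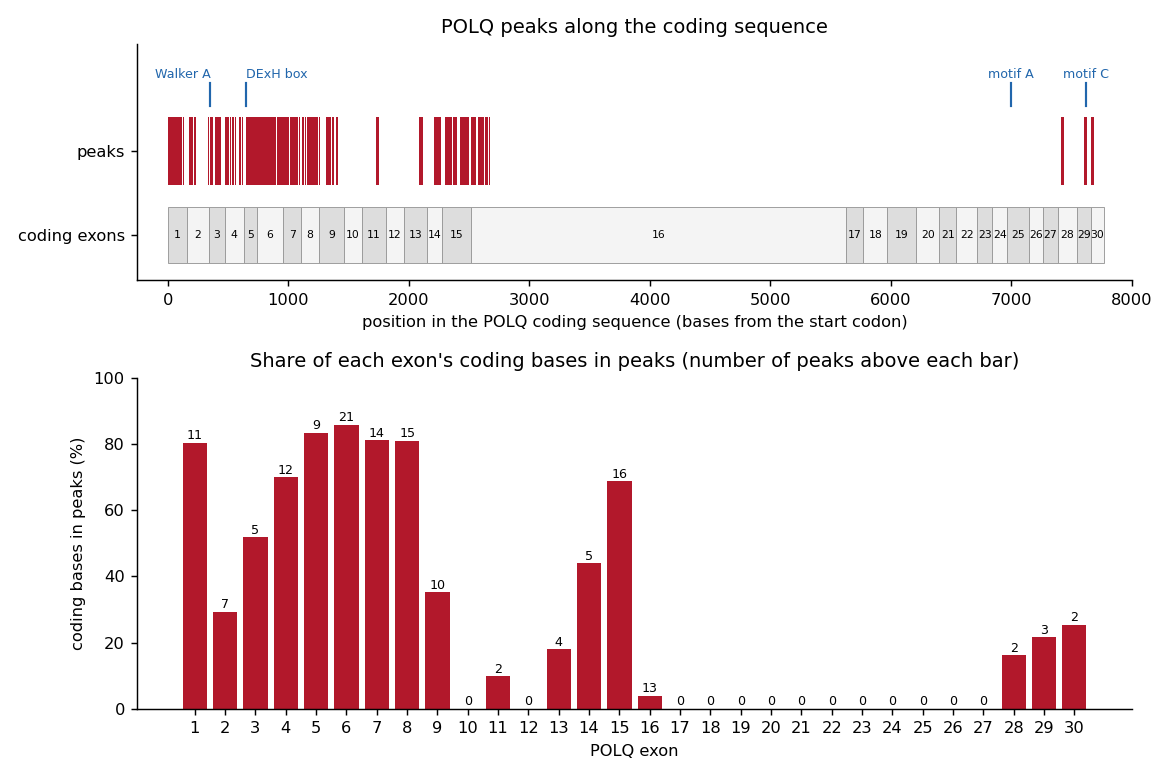
The upper panel shows the POLQ coding exons (grey, numbered), the peaks (red) and the landmarks found in the protein (blue) against the position in bases from the start codon. The lower panel shows the percent of each exon's coding bases in peaks, with the number of peaks above each bar. Most peaks lie in exons 1 to 9 and the stretch from exon 13 to the first 155 bases of exon 16, and are found again in exons 28 to 30.

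In total, 17 of the 30 POLQ exons held a peak and 13 held none. Exon size and base content were similar in both sets. The exons with a peak had a median of 157 coding bases and a median GC content of 43.8% (36.9 to 65.6%). Those without had a median of 143 bases and a GC content of 43.5% (38.3 to 47.7%).

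Landmarks of the protein were searched as short patterns to place the peaks on its parts. Some patterns matched more than once, and the matches taken were the first for the helicase motifs and the last for motif C. The nucleotide-binding motif of helicases (Walker A) was found at residues 115 to 122, across the junction of exons 2 and 3, and 18 of its 24 bases were in peaks. The DExH box, another helicase motif, was found at residues 216 to 219 in exon 5, with 8 of its 12 bases in peaks. Both lie in the first block. Polymerase motif A, which carries a catalytic aspartate, was found at residues 2330 to 2335 in exon 25, and the nearest peak base was 412 bases away. Polymerase motif C, at residues 2539 to 2541 in exon 29, lay wholly in peaks (9 of 9 bases). The matches not taken were a Walker A pattern at residues 1003 to 1010, a motif C pattern at 1714 to 1716 and DExH patterns at 322 to 325 and 1599 to 1602. Of these, the DExH pattern at 322 lay wholly in peaks, and the other 3 lay in the peak-free stretch of exon 16. With the central part taken as codons 720 to 1829, which is 500 residues inward of the DExH box and of motif A, the 3 parts held 110, 34 and 7 peaks from the amino to the carboxy terminus. Their densities were 51.0, 10.2 and 3.06 peaks per kb. The outer parts together had 2.58 times the density of the central part (95% interval 1.75 to 3.90), a ratio that comes from the amino-terminal part. This interval also takes peaks as independent, and with touching peaks joined the ratio was 2.85. The 34 central peaks all ended by codon 893, at the edge that adjoins the amino-terminal part.

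In SUMO3, 226 of the 312 coding bases (72.4%) were in a peak, at 73.7 peaks per kb. Each of the 4 exons held peaks. Exon 2 had 11 peaks over 93.8% of its coding bases, exon 1 had 2 over 71.4%, exon 3 had 6 over 65.3% and exon 4 had 4 over 47.8%. The first peak started at base 7, in codon 3, and the last ended at base 269, in codon 90. The remaining 43 coding bases, which encode the end of the precursor, were without a peak. The sumoylation consensus at residues 10 to 13 lay wholly in peaks (12 of 12 bases). The diglycine at residues 91 and 92 had 0 of its 6 bases in a peak, and it starts 2 bases after the last peak base. The coding sequence is 2.37% of the SUMO3 gene body and the UTRs make up 82.1% of the mRNA. All 23 peaks were nevertheless in coding sequence from end to end, and none was on the opposite strand. Whether the reads of either gene came from the transcript of the locus or from another copy of its coding sequence, such as a vector, was not tested, since reads were not analysed here.

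**Figure D2:**
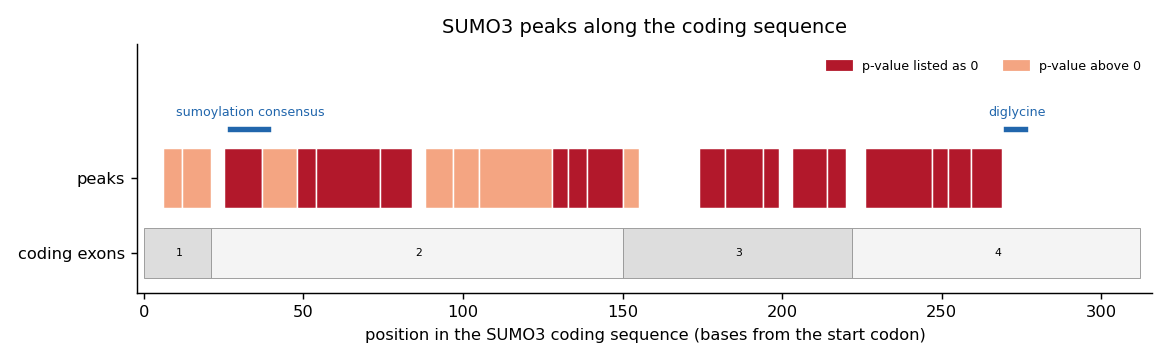
The SUMO3 coding exons (grey, numbered), the peaks (dark red where the p-value is listed as 0, light where it is above 0) and the landmarks (blue) are drawn against the position in bases from the start codon. Peaks cover 72.4% of the bases and end at base 269, just before the diglycine.

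The peaks were short and lay side by side. In POLQ they were 5 to 45 bases long (median 8.0), in SUMO3 5 to 23 bases (median 9.0), and other peaks in coding sequence had a median of 11.0. In POLQ 141 of 151 peaks (93.4%) and in SUMO3 22 of 23 (95.7%) directly touched another peak. Most peaks elsewhere did so too, 73.3% of the other coding sequence peaks and 79.1% of the whole list. Joining those that touch gave 48 sites in POLQ, of 6 to 120 bases, and 7 in SUMO3, of 5 to 62 bases. The longest POLQ site was the 120 bases from the start codon in exon 1, made of 10 peaks. The gaps were also short. Of 46 gaps between covered stretches of the spliced POLQ coding sequence, 24 were of 10 bases or fewer and 4 were longer than 100. Peak starts were spread over the reading frame, with 56, 45 and 50 POLQ peaks starting on the first, second and last base of a codon, and 8, 10 and 5 SUMO3 peaks.

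Peaks met exon edges without crossing them. Of the POLQ peaks 5 started on the first coding base of an exon (exons 1, 4, 6, 16 and 30) and 2 ended on the last base of an exon (exons 2 and 5). Of the SUMO3 peaks, 1 started on the first base of exon 3, and 2 ended on the last bases of exons 1 and 2. Peaks on an edge were 4.64% of those in POLQ, near the 4.07% (20 of 491) of the other coding sequence peaks. In SUMO3 they were 3 of 23 (13.0%). At the junction of POLQ exons 5 and 6 and at that of SUMO3 exons 2 and 3, the peaks on both sides adjoin in the spliced sequence. The introns between them are 3890 and 4857 bases long and hold no peak. With starts counted from 0, none of the 174 peaks ran past an edge of a coding exon, whereas 36 of the other 491 coding sequence peaks (7.33%) did. The other peaks were longer, with a median of 11.0 bases against 8.0 in POLQ and 9.0 in SUMO3, and length was not matched. The exon starts also showed how the list counts positions. Read with starts counted from 0, 10 peak ends fell on a coding exon edge and no peak left its exon. With starts counted from 1 these numbers were 6 and 4. The first reading was used, and the absence of peaks past an edge depends on it.

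The p-values that the authors list for these peaks were among the lowest of the list. All 151 POLQ peaks and 16 of 23 SUMO3 peaks (69.6%) had a p-value listed as 0, which held for 7.44% of all peaks. The 2 genes thereby held 167 of the 580 peaks of this kind (28.8%) and 2.23% of the list. The 7 SUMO3 peaks with a value above 0 ran from 5.49e-303, at the first bases of exon 3, to 4.6e-107, in exon 2. The 779 lowest p-values, 10.0% of the list by construction, included those of 151 POLQ and 20 SUMO3 peaks (87.0% of those of SUMO3). Among the other 491 peaks in coding sequence the median p-value was 2.72e-42, and 17 (3.46%) were listed as 0. The rule for the genes rests on the same comparison of immunoprecipitate with input, so nothing further is read from these shares, and the test behind the p-values is not given in the sources used here.

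**Figure D3:**
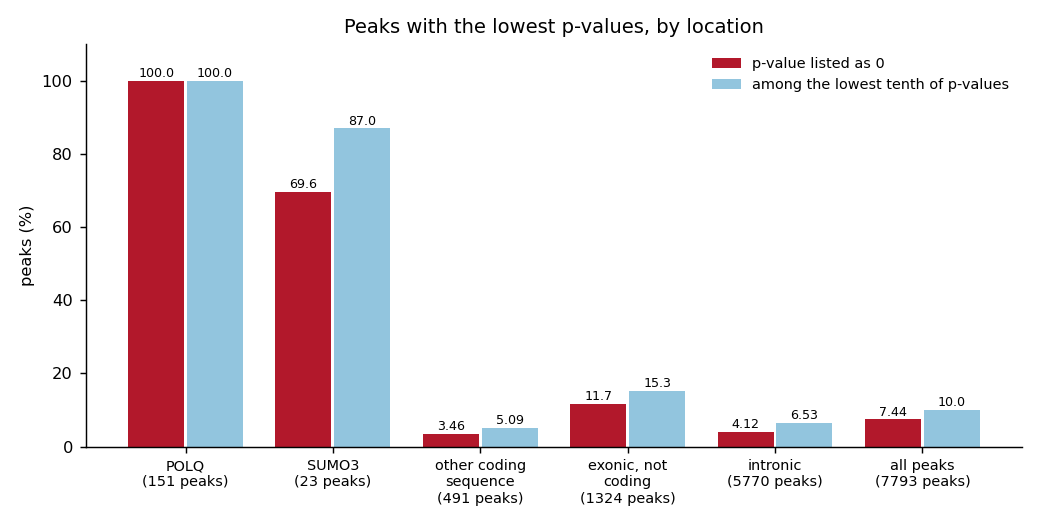
Bars give the percent of peaks with a p-value listed as 0 (red) and among the lowest 10.0% of p-values (blue), for POLQ, SUMO3, peaks in other coding sequence, in exons outside coding sequence, in introns, and for the whole list. POLQ stands at 100.0% in both measures and SUMO3 at 69.6% and 87.0%, while the other locations range from 3.46% to 15.3%.

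The fold enrichment, the ratio of immunoprecipitate to input as listed, did not set these peaks apart. Its median was 2.93 in POLQ (2.01 to 3.98), 2.92 in SUMO3 (2.03 to 3.98) and 3.00 over the whole list, which runs from 2.00 to 4.00. With p-values tied at 0, the POLQ peaks that ranked highest by fold enrichment were 1 in exon 8 (3.98), 1 in exon 28 (3.97), 1 in exon 6 (3.97) and 2 adjoining ones in exon 29 (3.95 and 3.94). The 3 touching peaks of exon 29 include the bases of motif C. In SUMO3 the highest among those listed at 0 were 3.80 near the start of exon 4, 3.57 and 3.44 in exon 2, 3.40 in exon 3 and 3.36 in exon 4. The first POLQ peak, at the start codon, had 2.48, and the last of the gene 2.02. Touching peaks could differ in this ratio, as the next peaks after the start codon, at 3.79 and 3.91, show.

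The base content in peaks was compared with that of the other coding bases. 4-Thiouridine crosslinks at U, and in POLQ U made up 28.7% of the bases in peaks and 26.6% of the coding bases outside. The difference of 2.08 percentage points has an interval (−0.204 to 4.47, from the number of bases in peaks) that includes 0. This interval takes neighbouring bases as independent and the outside share as fixed, and is not a test. Against the bases outside peaks in the same 17 exons, A was less frequent in POLQ peaks (25.2% against 35.2%) and GC more frequent (46.1% against 38.5%). Of these 4292 outside bases, 2985 belong to exon 16. With exon 16 left out, A stood at 24.6% in peaks and 31.0% outside, GC at 45.9% and 43.3%, and U at 29.5% and 25.7%, a U difference of 3.77 percentage points. Most of the GC difference thus came from exon 16, while the U difference was larger without it. In SUMO3 U made up 13.3% of the bases in peaks and 17.4% of the 86 bases outside. A and C were higher in SUMO3 peaks (29.2% against 23.3% and 25.7% against 18.6%) and G lower (31.9% against 40.7%). No U was present in 8 of the 151 POLQ peaks, in 7 of the 23 SUMO3 peaks and in 55 of the 491 other coding sequence peaks. RNase A, with which the lysate was treated, cuts behind C and U. The last base was C or U in 53.0% of POLQ peaks and 52.2% of SUMO3 peaks, near the 51.0% of all peaks. The share was 45.2% in the other coding sequence peaks. The base before a peak was C or U in 47.0% of POLQ and 47.8% of SUMO3 peaks. That share was 44.4% in the other coding sequence peaks and 49.6% in all peaks. C and U made up 48.7% of all bases in POLQ peaks and 38.9% of those in SUMO3 peaks.

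Exact matches in the genome were counted for windows around the peak midpoints, which were longer than most peaks. The windows were read from the genome and not from the spliced sequence, so those near an exon edge include bases outside the coding exon. Copies that differ by a base were not counted, and where reads align was not tested. In 20 bases around the midpoint, 146 of 151 POLQ peaks and 23 of 23 SUMO3 peaks matched GRCh38 once, and the other 5 matched at most 2 places. With 30 bases all 174 matched once, and with 15 bases 22 did (12.6%). SUMO2 and SUMO4, the close paralogs of SUMO3, share 81.7% and 75.4% of the aligned coding bases with it. Each of the 7 SUMO3 sites differed from SUMO2 in 1 to 15 bases and from SUMO4 in 1 to 17. At the level of peaks, 20 of 23 differed from SUMO2 and 22 from SUMO4. SUMO2 and SUMO4 held no peak in their coding sequence.

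Over the whole list 665 of 7793 peaks (8.53%) lay in coding sequence of any transcript on their strand. By canonical transcripts alone these were 637 peaks, in 282 genes. POLQ had the most and SUMO3 the next. In the other 280 genes the median was 2.00 peaks, and 263 of them had peaks in 1 coding exon. Next in number was PRTN3, the neutrophil protease proteinase 3, with 9 peaks in 3 of 5 coding exons, followed by RPS19, a protein of the small ribosomal subunit, with 5. HASPIN, a histone H3 kinase, and LRRIQ1 followed with 4 each. The p-value was listed as 0 for the 4 HASPIN peaks and for none of the peaks of PRTN3, RPS19 and LRRIQ1. By share of the coding sequence in peaks, SUMO3 ranked first of the 282 genes and POLQ, with its long coding sequence, was number 6. PRTN3 had 11.0%, RPS19 17.6%, and the highest share outside SUMO3 was 45.6% in the short SERF2, named here after its value was seen. The other genes had a median of 0.728%. The rank of SUMO3 holds for its canonical transcript, and on its longest other coding transcript the share was 41.2%, below that of SERF2.

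The nearest peaks to POLQ on either strand lay 13.1 kb away, in coding sequence of STXBP5L, and 134.0 kb away, in an intron of GOLGB1. Their p-values were 3.09e-74 and 7.02e-69. Those nearest to SUMO3 lay 68.2 kb away in an intron of ITGB2 and 374.0 kb away in an intron of TRPM2. RRN3 itself, the tagged and expressed gene, held no peak.

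Genes that act with POLQ and SUMO3 were counted from lists. Of 21 other genes of theta-mediated end joining on chromosomes with peaks, 8 (38.1%) held a peak, 15 peaks in all, against 15.9% of all protein-coding genes on these chromosomes. POLN, which encodes a polymerase of the same family as POLQ, held 2 peaks, both in coding sequence. HELQ, a helicase related to the helicase-like part of POLQ, held 2 intronic peaks. Of 26 other genes of the SUMO pathway, 1 held a peak, the ubiquitin ligase gene RNF111 with 4, none of them in coding sequence. SUMO2 and SUMO4 held none, nor did the genes of the E1 and E2 enzymes. None of the 15 peaks of the end-joining genes and none of the 4 of RNF111 had a p-value listed as 0, against 7.44% of all peaks. With so few peaks, a count of 0 is near that share and does not set these genes apart from the list. Gene length was not matched in these counts.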

How the data were processed

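A peak list in which the immunoprecipitate is set against the input was deposited by the authors. Its build is GRCh38 per the submitters' processing notes, the libraries carried molecular identifiers, and the aligner, peak caller and threshold are not given in the sources used here. The deposited fold enrichment is a ratio with unstated scaling, the deposited p-value is the authors', and the deposited false discovery rate and score are 1 for all 7793 peaks. They were used to describe and rank peaks. Ranks give ties the lowest number, so the 580 peaks with a p-value listed as 0 are tied first.

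Peaks were placed by midpoint on GENCODE release 44, in the Ensembl canonical transcript, stop codon included. Positions are 1-based. Depth per peak was not analysed here. No test was made, as there is 1 library per condition, and intervals (95%, Wilson or exact binomial) cover counting error only. They take peaks and bases as independent, although most peaks touch another, and are likely too narrow. Members and lists were chosen with earlier results of these data known. The named genes were POLQ, SUMO3, RRN3, the next genes by coding sequence peaks, the paralogs, and genes of the 2 pathway lists with a coding sequence peak, of which some are not reported here. Named peaks were the 5 strongest per gene, the first, the last and those at exon junctions. The patterns first set for Walker A and the DEAH box found no match in POLQ and were widened, to A or G first and to any residue between DE and H, after this was seen. The first match was taken for these, and the match nearest the carboxy terminus for motif C. The functions were tested on simulated data. Sequences come from GRCh38. The software was samtools 1.23.1, pysam 0.24.0, Biopython 1.88, matplotlib 3.10.9, scipy 1.17.1, pandas 2.3.3, numpy 2.4.6 and Python 3.11.15. Alternatives varied the placement, transcript, joining, p-value limits and windows.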

Additional observations from a re-analysis of the deposited data

How the results depend on the processing

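The 12 results were computed again with 42 other settings. In 33 cases the value remained inside the 95% interval or, for a count, differed by no more than 1.5 times. In 9 it moved further. Only the U difference could change sign, and it did so in 0 cases. The p-value limits could not change any POLQ value, since all 151 POLQ peaks are listed at 0. Joining touching peaks lowered the counts by construction, to 48 in POLQ and 7 in SUMO3, and joining over gaps of up to 10 bases left 26 POLQ sites. On the longest other coding transcript, 33.5% of the POLQ coding bases were in a peak and 41.2% of those of SUMO3. With peaks listed at a p-value of 0 only, coverage of SUMO3 was 49.7%. All SUMO3 peaks (100.0%) were among the 1558 with the lowest p-values. With 15 bases around the midpoint, which is too short to be rare in a genome, 12.6% matched once, and with 30 bases 100.0%. The U difference with exons without a peak left out (2.45 percentage points), and with exon 16 left out as well (3.77), was added after seeing the data and stayed within the interval. A limit of the lowest 389 p-values takes in all 580 peaks tied at 0. No paired analysis was possible because there is 1 library per condition and no test.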
